A study of Mus musculus with 4 samples.

Results

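Transcripts of 50 genes of the cell division cycle were followed through 4 single-cell RNA sequencing libraries of mouse brown adipose tissue (BAT), among 32285 genes counted. The members were taken from a list of symbols and all 50 were found. They were divided into 17 S genes, which serve DNA replication, 28 G2/M genes, which serve chromosome condensation, the spindle and mitosis, and 5 broadly transcribed genes (Tubb5, Tuba1b, Stmn1, H2afz and Hmgb2) that dividing cells make more of but that many other cells also contain. The libraries held the stromal vascular fraction (SVF), the mixture of immune, stromal and vascular cells that remains when digested tissue is freed of its floating adipocytes. The groups were wild-type mice aged 10 weeks (WT), db/db mice of 2 ages, 8 weeks (db/db 8w) and 16 weeks (db/db 16w), and mice on a high-fat diet (HFD) recorded as aged 10 weeks, all of strain C57BL6/J by the labels. The db/db mice carry a mutation of the leptin receptor and become obese and diabetic, whereas the HFD mice carry no such mutation and become obese through their diet. Since the study started the diet when the mice were 10 weeks old, the recorded age of the HFD mice is not settled, and the db/db and WT mice differed in age as well as genotype. The study used male mice and pooled the SVF of 3 mice for each library. The comparison asks which SVF cells carry transcripts of dividing cells in lean and in obese mice.

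Every group was 1 library, so no difference was tested, all ratios to WT share the same WT library, and every 95% interval covers counting error only. The 4 libraries gave 28887 cells after quality filtering (5462 to 11648 each), with 26558173 to 53420105 unique molecular identifiers (UMIs, each a counted RNA molecule) and medians of 2733 to 6218.5 UMIs per cell. The db/db 16w library stood apart in its quality measures, with 1.04% of barcodes over the mitochondrial limit against 28% to 68.5% in the others. It also held 207 CPM (UMIs per 1000000 UMIs of the class of cells) of Xist, the RNA of the inactive X chromosome, against at most 0.688 CPM in the others, and 17.7 CPM of Y-linked genes against 164 to 188 CPM, which goes against a library of male mice only. Of 50313 barcodes, 267 occurred in more than 1 library. The part of these library differences in the results was not tested.

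A dividing cell copies its DNA in S phase and separates the copies in mitosis, and the genes for both tasks are transcribed in waves. S genes such as the Mcm helicase subunits are known targets of E2F factors, which are released when the retinoblastoma protein is phosphorylated. G2/M genes are held silent by the DREAM complex in resting cells and are switched on by the MuvB complex with B-Myb and Foxm1, through a promoter element called the cell cycle genes homology region (CHR). In adipose tissue, macrophages, stromal precursors and endothelial cells can all divide, and macrophages that divide in place are a known feature of obese fat.

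The 2 groups of genes differ in the promoter sequences that bear on this timing. RefSeq promoters of the GRCm38.p6 build, 300 bases each from 250 before to 50 after the transcription start, were found for 42 of the 50 members in 45 entries. No entry was found for Aurkb, Ccna2, Gins2, H2afz, Mcm4, Smc4, Stmn1 or Tpx2. The S promoters below are 17 entries of 15 genes and the G2/M promoters 25 entries of 24 genes. A gene with 2 entries, as Mcm7 and Uhrf1 among S genes, counts for each. On both strands, an E2F motif (TTCCCGC or TTCGCGC or TTGGCGC or TTGCCGC) was held by 64.7% of the 17 S promoters and 16% of the 25 G2/M promoters, against 9.57% of all 32851 promoters of the table. A CHR (TTTGAA or TTCGAA) was held by 84% of the G2/M promoters and 11.8% of the S promoters, against 19.2% of all promoters. The CCAAT box (CCAAT) was common in both, at 70.6% of S and 88% of G2/M promoters against 37.4% of all promoters. A CHR and a CCAAT box together were held by 80% of the G2/M promoters, 11.8% of the S promoters and 7.52% of all promoters. The member promoters were also richer in G and C (median 57.7% in S and 58% in G2/M, against 52.7% in all), and a match is a description of letters, not evidence of a bound factor.

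**Figure D1:**
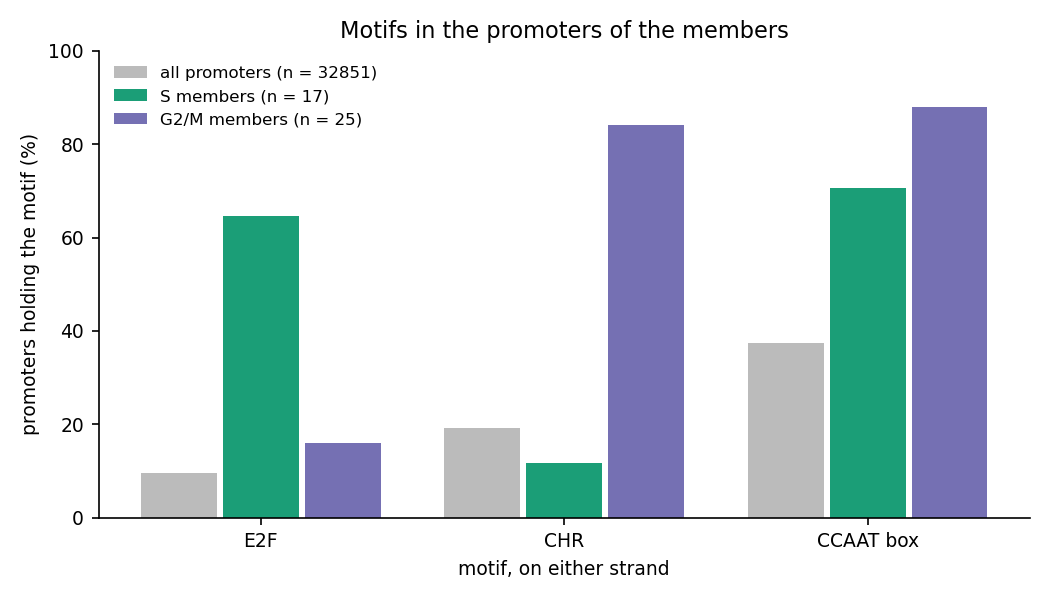
Percent of RefSeq promoters (vertical axis) that hold an E2F motif, a CHR or a CCAAT box on either strand (horizontal axis), as bars for all promoters of the table, the S members and the G2/M members. The E2F bar is highest for S members (64.7%) and the CHR bar for G2/M members (84%), while the CCAAT box is common in both.

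Stretches of 6 member promoters show these patterns. Each is the 200 bases before the RefSeq transcription start on the gene's own strand, overlaps no exon of the gene annotation, and has its motifs in capitals. Mcm5 and Mcm6 are shown as S genes with overlapping E2F motifs, Ccnb2, Top2a and Mki67 as G2/M genes with a CHR and CCAAT boxes, and Birc5 as a G2/M gene with none of the 3 motifs.
Mcm5, plus strand, chr8:75109309-75109508: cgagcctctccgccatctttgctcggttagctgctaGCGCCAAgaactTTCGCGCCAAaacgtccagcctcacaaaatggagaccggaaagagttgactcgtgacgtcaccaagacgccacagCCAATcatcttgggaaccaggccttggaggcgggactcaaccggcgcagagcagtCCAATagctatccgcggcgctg
Mcm6, minus strand, chr1:128359706-128359905: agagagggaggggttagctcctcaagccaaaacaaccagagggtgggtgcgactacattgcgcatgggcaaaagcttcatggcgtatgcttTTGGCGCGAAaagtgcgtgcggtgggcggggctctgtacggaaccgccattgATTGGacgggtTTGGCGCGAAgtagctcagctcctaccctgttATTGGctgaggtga
Ccnb2, minus strand, chr9:70421555-70421754: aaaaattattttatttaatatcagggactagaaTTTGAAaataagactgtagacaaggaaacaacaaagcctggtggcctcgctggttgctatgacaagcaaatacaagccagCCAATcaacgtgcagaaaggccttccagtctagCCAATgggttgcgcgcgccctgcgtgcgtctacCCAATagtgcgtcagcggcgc
Top2a, minus strand, chr11:99024190-99024389: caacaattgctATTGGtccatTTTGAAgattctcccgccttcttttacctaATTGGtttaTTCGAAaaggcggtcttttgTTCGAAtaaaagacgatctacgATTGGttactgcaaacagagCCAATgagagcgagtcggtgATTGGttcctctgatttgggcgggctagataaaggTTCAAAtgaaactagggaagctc
Mki67, minus strand, chr7:135716380-135716579: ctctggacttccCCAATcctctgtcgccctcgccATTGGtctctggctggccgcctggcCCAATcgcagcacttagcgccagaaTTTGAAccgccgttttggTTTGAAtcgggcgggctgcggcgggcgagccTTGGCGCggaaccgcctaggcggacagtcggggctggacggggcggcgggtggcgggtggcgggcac
Birc5, plus strand, chr11:117849037-117849236: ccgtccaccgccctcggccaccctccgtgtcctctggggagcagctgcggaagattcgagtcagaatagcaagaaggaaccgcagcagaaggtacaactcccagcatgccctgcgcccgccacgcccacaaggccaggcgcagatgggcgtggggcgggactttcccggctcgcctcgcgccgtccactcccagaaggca

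In Mcm5, which encodes a subunit of the replicative helicase, 3 E2F matches on the 2 strands overlap or lie close together, starting 164, 152 and 149 bases before the start. In Mcm6 the same kind of overlapping pair occurs at 2 places, 109 and 106 bases and 46 and 43 bases before the start. Ccnb2, the gene of a mitotic cyclin, has 3 CCAAT boxes, at 87, 54 and 21 bases. Top2a, which encodes the topoisomerase that untangles chromosomes, has 4 CHR matches within the printed stretch, the nearest 23 bases before the start. Mki67, the gene of the proliferation marker Ki-67, holds 2 CHR matches, 3 CCAAT boxes and 1 E2F match. The promoter of Birc5 (survivin, a subunit of the chromosomal passenger complex) held none of the letters searched, and it was 1 of 4 G2/M entries without a CHR, beside Ccnb1, Cenpe and Nusap1.

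Across all kept cells both groups of genes were lowest in WT and highest in db/db 16w. The S list summed to 154 CPM in WT, 257 and 787 in the 8w and 16w libraries of db/db, and 380 in HFD, and the G2/M list to 231, 418, 1335 and 694 CPM. Relative to WT this was 1.67-fold, 5.10-fold and 2.47-fold for S, and 1.81-fold, 5.77-fold and 3-fold for G2/M. The broadly transcribed genes followed the same order, at 595, 1053, 3097 and 1372 CPM. Of the 50 members, 16 were at least 2-fold higher in db/db 8w than in WT, 49 were in db/db 16w and 38 were in HFD, and none was 2-fold lower. Over all genes with at least 30 UMIs in the pair of libraries, 9.74% were that much higher and 6.55% lower in db/db 8w, 18.8% and 29.4% in db/db 16w, and for HFD the shares were 19.8% and 12.8%. The median log2 ratio of the members was 0.81, 2.50 and 1.47, where that of all tested genes was -0.02, -0.27 and 0.15. The single member short of 2-fold in db/db 16w was Smc4, a condensin subunit.

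Because the libraries differ in cell types, the members were next read within lineages. Cells were gated on raw UMIs of fixed markers, such as Csf1r, C1qa and Cd68 for monocytes and macrophages (Mono/MAC), Pdgfra and Col1a1 for stromal cells, and Cldn5 and Cdh5 for endothelial cells. This gave 1144 Mono/MAC cells in WT, 2624 and 2384 in the 8w and 16w libraries of db/db, and 1498 in HFD (19.2%, 22.5%, 40.9% and 27.4% of cells), whose median depth was alike at 5356 to 5934 UMIs. Stromal cells numbered 4370, 7020, 1199 and 1677. Endothelial cells numbered 1269 in db/db 16w and 859 in HFD but only 10 in WT and 62 in db/db 8w, too few for a level. Cells with markers of 2 lineages, called mixed, numbered 270, 1051, 136 and 1001, and T/NK cells at most 50 in a library.

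Within Mono/MAC cells the difference remained. The S list read 236 CPM in WT (95% interval 226 to 247), 340 (331 to 349) and 988 (974 to 1003) in the 8w and 16w libraries of db/db, and 520 in HFD (507 to 534). The G2/M list read 311 CPM (299 to 324), 618 (606 to 630), 1709 (1690 to 1729) and 916 (898 to 933). None of the 4 intervals of a list overlapped another. The log2 ratios to WT for S were 0.52 (0.45 to 0.60) and 2.06 (1.99 to 2.13) for the 8w and 16w libraries of db/db and 1.14 (1.06 to 1.21) for HFD. For G2/M they were 0.99 (0.93 to 1.05), 2.46 (2.40 to 2.52) and 1.56 (1.49 to 1.62), above those for S in each library. Per cell, this was a mean of 2.12, 4.16, 12.7 and 6.83 G2/M UMIs in that order. Between the db/db libraries, the S list was 1.54 and the G2/M list 1.47 log2 units higher at 16 than at 8 weeks, and the log2 ratios of HFD over db/db 16w were -0.93 and -0.90.

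Of the 50 members in Mono/MAC cells, 25 were at least 2-fold higher in db/db 8w than in WT (5 of 17 S and 18 of 28 G2/M genes), against a background of 7.2% of tested genes, and 1 was 2-fold lower, against 8.12%. In db/db 16w 46 members were higher (16 S and 26 G2/M genes), against 20.1%, and none lower, against 25.5%. In HFD 36 were higher (12 S and 22 G2/M), against 17%, and 1 lower, against 11.6%. Between db/db 8w and 16w, 42 were higher at 16 weeks (14 S and 25 G2/M), against 10.8%, and none lower, against 19.6%. Median log2 ratios of the members were 0.95 and 2.68 for the 8w and 16w libraries of db/db and 1.65 for HFD, where those of all tested genes were -0.02, -0.14 and 0.16. The level was highest in db/db 16w for 47 members and lowest in WT for 46. The shares of all genes highest or lowest in these libraries were not computed. Cenpe and Kif20b were highest in HFD, and Cdc6 in WT.

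**Figure D2:**
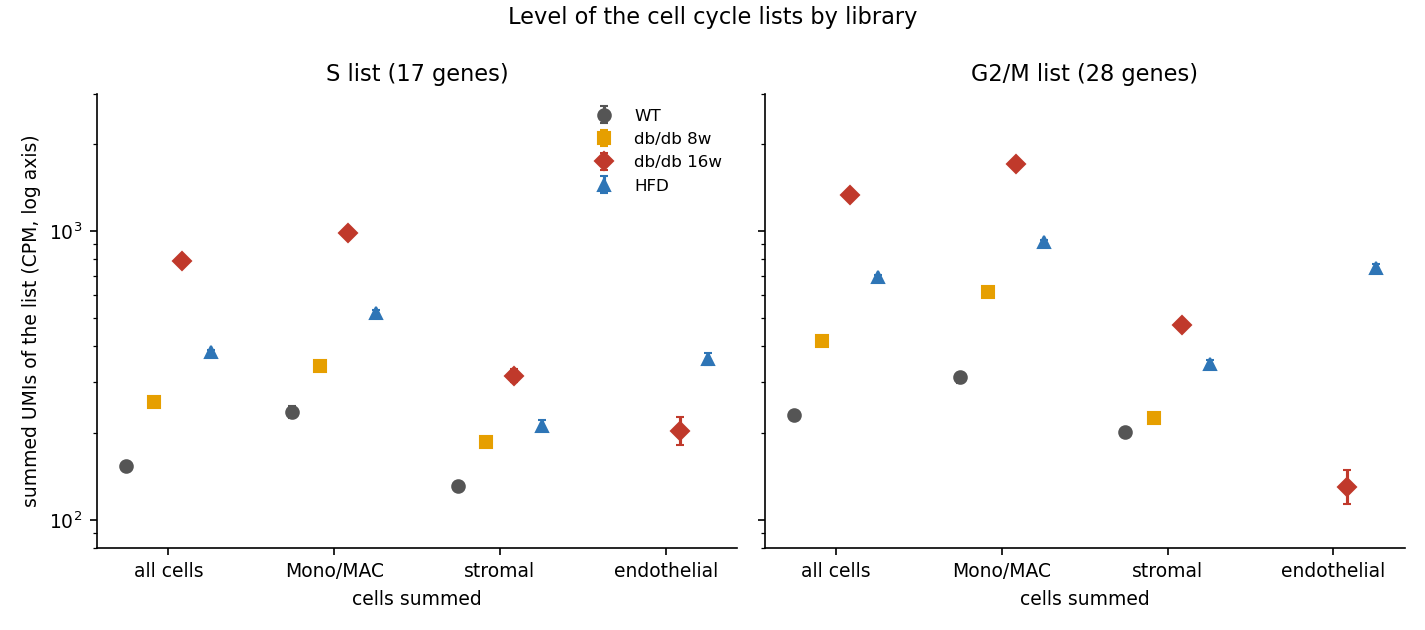
Summed level of the S list (left) and the G2/M list (right) in CPM on a log axis, for all cells and the Mono/MAC, stromal and endothelial gates, with a symbol for each library and endothelial points for db/db 16w and HFD only. Bars are exact Poisson 95% intervals of counting error, and db/db 16w is the highest library in each class of cells except the endothelial, where HFD is higher, although at 1000 UMIs per cell the stromal G2/M list is higher in HFD (248 CPM) than in db/db 16w (232 CPM).

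The Mcm2 to Mcm7 proteins form the ring helicase that opens DNA at replication origins, and their sum in Mono/MAC cells was 62.8 CPM in WT, 92.8 and 248 in the 8w and 16w libraries of db/db, and 125 in HFD. In the same order of libraries, Mcm2 read 5.77, 9.74, 20.9 and 12.2 CPM and Mcm4 read 7.95, 13.1, 26.7 and 14.9 CPM. Mcm5 read 7.69, 11.0, 41.5 and 16.2 CPM. Mcm6 read 12.3, 16.3, 59.7 and 29.6 CPM. The largest difference within the ring was in Mcm7, at 6.92, 11.6, 49.4 and 16.9 CPM, a log2 ratio of 2.83 (2.44 to 3.26) in db/db 16w. The smallest was in Mcm3, at 22.2, 31.0, 49.6 and 35.3 CPM, with a log2 ratio of 1.16 (0.92 to 1.40). The intervals of these 2 subunits of the same complex did not overlap.

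The next S genes act at origins and the fork. Pcna, the sliding clamp that holds the polymerase on DNA, read 115, 149, 272 and 227 CPM, and its log2 ratios of 0.37, 1.24 and 0.98 were small for the list. Uhrf1 takes part in copying DNA methylation to the new strand and Pclaf binds the clamp. Pclaf, named after its values were seen, read 5, 17.6, 101 and 30.4 CPM, log2 ratios of 1.82, 4.34 and 2.61. Cdc6, which loads the helicase onto origins, went the other way. It read 12.8 CPM in WT (100 UMIs), 5.78 and 7.22 in the 8w and 16w libraries of db/db, and 4.84 in HFD, log2 ratios of -1.15 (-1.56 to -0.74), -0.83 (-1.22 to -0.44) and -1.41 (-1.91 to -0.92). It was the only member below WT in all 3 libraries of obese mice.

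Genes that supply nucleotides showed the largest db/db 16w ratio of any role in summed UMIs, though not in the median over members (3.21, against 3.63 for centromere and passenger genes), with a sum of 32.2, 59.0, 289 and 104 CPM and log2 ratios of 0.88, 3.16 and 1.69. Rrm2 encodes the small subunit of ribonucleotide reductase, which makes deoxynucleotides, and is made mainly in dividing cells. It read 1.54, 3.85, 42.0 and 8.42 CPM, with a log2 ratio of 4.77 (3.96 to 5.73) in db/db 16w. The large subunit, Rrm1, read 14.5, 18.9, 56.0 and 27.4 CPM, with a log2 ratio of 1.95 (1.67 to 2.24). The interval of the small subunit lay above that of the large subunit, though both belong to 1 enzyme. Tyms, the thymidylate synthase, read 6.16, 10.5, 45.9 and 15.1 CPM. Dut, which removes dUTP, read 6.41, 13, 73.1 and 22.4 CPM. Ung, which cuts uracil out of DNA, was sparse at 1.28 (10 UMIs), 1.64, 6.66 and 2.69 CPM, and only its db/db 16w ratio had an interval above 0 (2.38, 1.45 to 3.47). Tk1, thymidine kinase, had the highest HFD ratio of all members, 3.61, and was named after its values were seen.

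Among the mitotic cyclins and kinases, Cdk1 is the kinase that drives entry into mitosis with its partners cyclin A2 and the B cyclins. Cdk1 read 7.57, 15.8, 64.1 and 20.3 CPM in the 4 libraries, log2 ratios of 1.06, 3.08 and 1.43. Aurka, the spindle pole kinase, read 2.05, 3.57, 13.9 and 6.81 CPM. The 8 genes of this role summed to 33.2, 62.2, 265 and 92.9 CPM. Ube2c and Cdc20 work with the anaphase-promoting complex, which destroys cyclin B so that mitosis can end. Ube2c read 14.7, 39.9, 135 and 47.9 CPM, and Cdc20 read 3.59, 6.63, 18.7 and 7.61 CPM. Both were lowest in WT and highest in db/db 16w, with log2 ratios there of 3.20 and 2.38.

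Centromere and chromosomal passenger genes summed to 81.2, 147, 584 and 236 CPM. Their 2 extremes were Birc5, whose promoter is printed above, and Cenpa, the histone that marks centromeres. Birc5 had the highest db/db 16w ratio of all 50 members, with 6.03 CPM in WT, 27.6 and 175 in the 8w and 16w libraries of db/db, and 44.5 in HFD, and log2 ratios of 2.20, 4.86 (4.45 to 5.31) and 2.88. Cenpa read 49.1, 45.8, 149 and 52.0 CPM, so that only db/db 16w lay apart from WT (1.60), while db/db 8w and HFD were at -0.10 and 0.08. Spc25, a kinetochore subunit, read 5.26, 8.84, 27.8 and 10.4 CPM. Cenpf, a kinetochore protein of G2 and mitosis named after its values were seen, read 4.10, 14.7, 60.6 and 37.0 CPM.

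Spindle motors and microtubule binding proteins summed to 42.7, 93.5, 290 and 169 CPM. Nusap1, which bundles spindle fibres, read 6.16, 13.1, 79.3 and 23.7 CPM. Kif11, the motor that pushes spindle poles apart, read 2.56, 8.33, 19.9 and 16.1 CPM, so that HFD came close to db/db 16w. The genes of chromosome structure shared this closeness. Mki67 read 38.5, 99.1, 136 and 126 CPM, log2 ratios of 1.37, 1.82 and 1.72. Top2a read 15.6, 41.2, 95.3 and 76.2 CPM, log2 ratios of 1.40, 2.61 and 2.28. Smc2, a condensin subunit, read 17.4, 36.5, 84.7 and 59.8 CPM. The 3 libraries of obese mice were thus close to each other in Mki67 and far apart in Birc5 and Rrm2: the log2 ratio of db/db 16w over db/db 8w was 0.46 for Mki67, 2.66 for Birc5 and 3.45 for Rrm2.

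Of the broadly transcribed members, H2afz, a histone variant, read 276, 559, 1623 and 876 CPM. Tuba1b, an alpha-tubulin, read 116, 132, 525 and 219 CPM. Stmn1, which disassembles microtubules, was the member of this group with the largest ratio, 3.91 in db/db 16w. Hmgb2, a chromatin protein, read 258, 300, 439 and 136 CPM, so its HFD level lay below that of WT (-0.92, -1.02 to -0.83) while its db/db 16w level lay above (0.76).

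**Figure D3:**
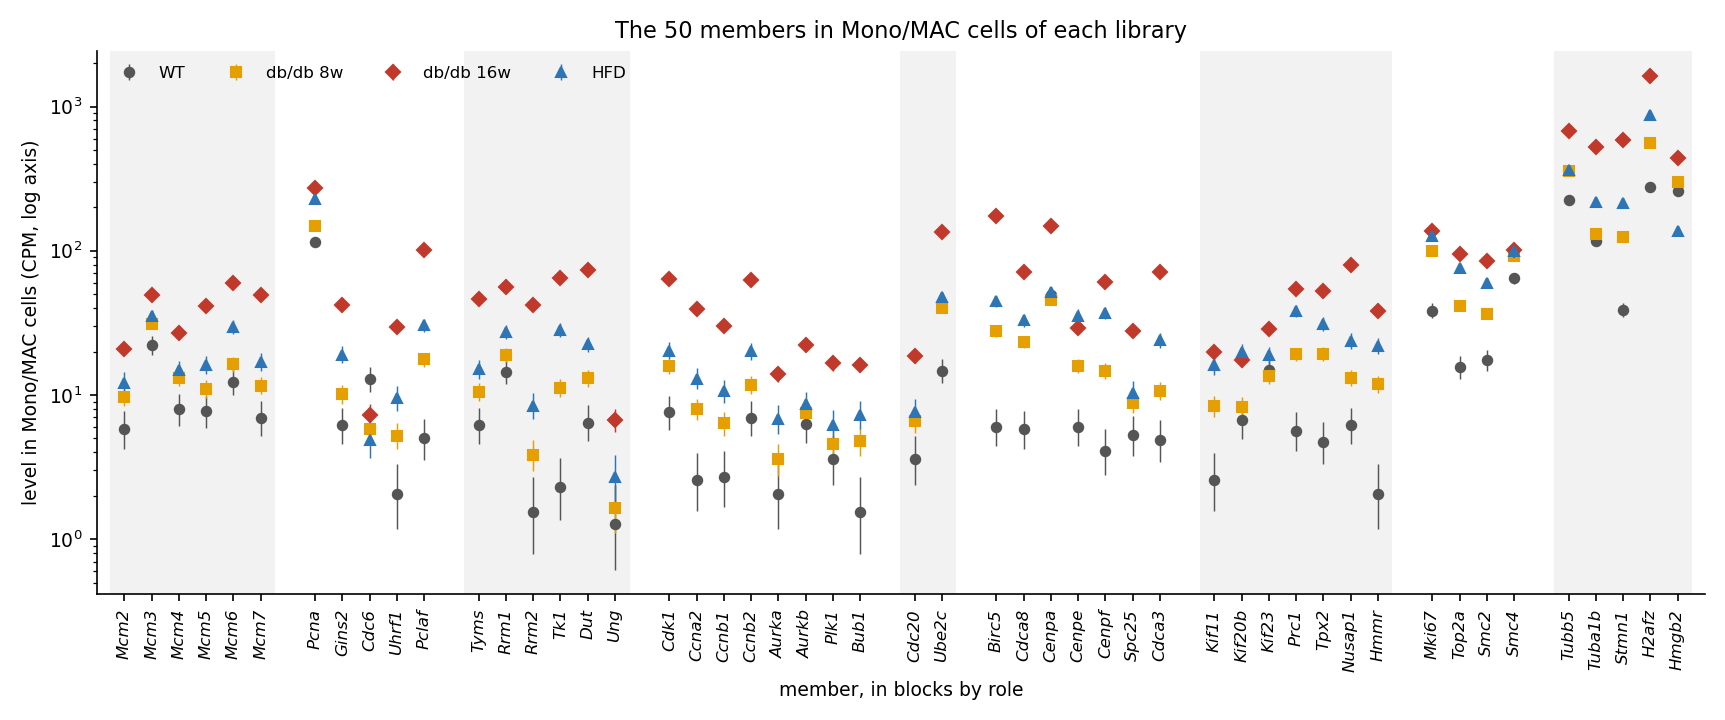
Level of each of the 50 members in Mono/MAC cells (vertical axis, CPM, log axis) in the 4 libraries, with genes along the horizontal axis in shaded and unshaded blocks by role and exact Poisson 95% intervals of counting error as bars. The db/db 16w symbol is the highest for 47 members and the WT symbol the lowest for 46, and Cdc6 has its WT symbol on top. The same shares over all genes were not computed.

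A higher level can come from more cells with the transcripts or more transcripts per cell, so the UMIs were followed into single cells, each thinned to 1000 UMIs. Of Mono/MAC cells, 2.55% had at least 2 G2/M UMIs in WT (29 of 1136, exact interval 1.72% to 3.65%), 5.93% (5.04% to 6.92%) and 21.2% (19.5% to 22.9%) in the 8w and 16w libraries of db/db, and 10.2% in HFD (8.73% to 11.9%). For S genes the shares were 2.11%, 4.07%, 17.7% and 7.28%. The order of the libraries was the same as for the levels, and no interval of G2/M shares overlapped another. Unthinned, 32.1%, 37.8%, 48.9% and 44.5% of the cells had at least 2 G2/M UMIs at median depths of 5356 to 5934, so these shares lay closer together than the thinned ones. For comparison, 0.604% of the 662 db/db 16w endothelial cells deep enough to thin passed the same limit (4 cells, median depth 1024 before thinning). In HFD 5.61% of 856 endothelial cells did. Endothelial cells can divide, so neither share is a background of cells that do not divide. In neutrophils, which do not divide, 7 of 75 cells of db/db 8w passed (9.33%, 3.84% to 18.3%, median depth 1235), and the other libraries held at most 11 neutrophils. The Mono/MAC shares of WT and db/db 8w are not above this neutrophil share of db/db 8w, and that of HFD lies inside its interval.

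The G2/M UMIs were unevenly spread over cells in every library. Cells with 4 or more G2/M UMIs made up 0.968% of Mono/MAC cells in WT, 2.45% and 12.9% in the 8w and 16w libraries of db/db, and 5.67% in HFD. They held 34.9%, 45.7%, 71.9% and 65.2% of all G2/M UMIs in that order, a share over a fixed limit that rises with the level itself. S and G2/M transcripts met in the same cells. Among db/db 16w cells with at least 2 S UMIs 52.7% also had at least 2 G2/M UMIs, against 10.3% of those with no S UMI. In WT the shares were 20.8% (5 of 24 cells) and 1.93%, in db/db 8w 31.1% and 4.33%, and in HFD 45.9% and 6.72%. Single genes were seen in fewer cells, for example Birc5 in 0.264%, 1.30%, 9.45% and 3.14% of thinned Mono/MAC cells and Mki67 in 2.73%, 6.05%, 9.19% and 7.54%.

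Cells with G2/M transcripts were of different lineages in the 4 libraries. Of the 104 such cells of WT, 27.9% were Mono/MAC and 56.7% stromal. Of the 596 of db/db 16w, 81.7% were Mono/MAC (78.4% to 84.7%) and 4.87% stromal. Mono/MAC cells were 48.7% of all thinned cells there. In WT they were 19.8% of all thinned cells, a share inside the interval of their G2/M share (19.5% to 37.5%). In db/db 8w 36.7% of 409 cells were Mono/MAC (26.7% of all thinned cells), 27.9% stromal and 21.0% mixed. In HFD 42.4% of 361 were Mono/MAC (27.5% of all thinned cells), 23.8% mixed, 13.3% endothelial and 11.9% stromal.

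To see which members mark the same cells, Mono/MAC cells were thinned to 3000 UMIs and those with 4 or more UMIs of the other G2/M genes were set against those with none, a split chosen after the data were seen. In db/db 16w this set 478 cells against 701. All 28 G2/M genes had intervals above 0, with log2 ratios of 2.46 to 7.95, and 16 of 17 S genes did, with 1.01 to 5.70. The cells were chosen by the other G2/M genes, so the counts show which members occur together. The share of all genes with such an interval was not computed. Birc5 read 553 CPM in the cells with G2/M transcripts and 3.30 CPM in those without, a log2 ratio of 7.39. Among S genes Pclaf (5.70) and Rrm2 (5.20) had the largest ratios, while Mcm2 (1.10) and Mcm3 (1.05) had small ones. The exception was Cdc6, at 7.67 and 3.80 CPM (1.01, -0.44 to 2.53), of which only 32.4% of UMIs lay in the cells with G2/M transcripts. In WT, where Cdc6 was highest, 15.4% of its Mono/MAC UMIs lay in such cells. The broadly transcribed members had ratios of 1.79 to 3.11, and 825 CPM of H2afz remained in cells without G2/M transcripts.

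The same split was read for genes of macrophage subsets, which are not members. Trem2, Gpnmb, Lpl and Fabp5 are known from lipid-associated macrophages (LAMs), which take up lipid in obese fat. In db/db 16w Trem2 read 944 CPM in the cells with G2/M transcripts and 1091 in those without (-0.21), Lpl 2456 and 2549 CPM (-0.05), Gpnmb 1156 and 1396 CPM (-0.27, -0.36 to -0.18) and Fabp5 1710 and 1971 CPM (-0.21). Of the genes of perivascular-like macrophages, Cd163 read 48.1 and 122 CPM (-1.34, -1.75 to -0.96) and Lyve1 67.6 and 120 CPM (-0.82). Cd9 and Spp1 of LAMs and Folr2, F13a1, Cbr2 and Gas6 of perivascular-like macrophages were also read and are not given here. The genes shown thus do not stand for their whole sets. In db/db 16w the ratios of the 4 LAM genes shown lay nearer to 0 than those of Cd163 and Lyve1. This does not compare the 2 sets, and the genes were chosen after their values were seen. In HFD the LAM ratios were -0.16 for Trem2, -0.22 for Fabp5, -0.36 for Lpl and -0.54 for Gpnmb, and in db/db 8w Cd163 read 238 and 615 CPM (-1.37). The cells with G2/M transcripts held less Cd163 in all 4 libraries, though in HFD its interval reached 0 (-0.82, -1.77 to 0.01).

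Finally, cells were separated by phase. In db/db 16w, about 116 Mono/MAC cells had 4 or more S UMIs with at most 1 G2/M UMI, and 83 the reverse, the gene in question being left out each time. Of the 17 S genes, 12 had intervals above 0 in the S cells, led by Mcm2 at 64.8 against 7.94 CPM (3.03) and with Mcm7 at 2.50 and Pcna at 1.19. Of the 28 G2/M genes 25 lay below 0, such as Ccnb2 at 8.40 against 301 CPM (-5.16), Ube2c (-5.12) and Mki67 at 27.5 against 333 CPM (-3.60). The cells were chosen by members of the same 2 lists, so the split shows which members occur together and cannot test the labels. The shares of all genes with intervals above or below 0 in this split were not computed. Pclaf was the only S gene with an interval below 0, at 20.8 CPM in S cells and 164 CPM in G2/M cells (-2.97, -4.35 to -1.84). Tyms, Rrm1, Rrm2 and Tk1, all of nucleotide supply, had intervals that spanned 0, as did Aurkb, Kif11 and Smc2 among G2/M genes. All 5 broadly transcribed members were at negative values, from -0.08 for Tuba1b, whose interval spanned 0, to -1.53 for H2afz.

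The balance of the summed UMIs of the 2 lists in Mono/MAC cells differed between WT and the other libraries. Mono/MAC cells held 0.759 S UMIs per G2/M UMI in WT (0.714 to 0.807), 0.550 (0.533 to 0.568) and 0.578 (0.568 to 0.589) in the 8w and 16w libraries of db/db, and 0.568 in HFD (0.550 to 0.587). The 3 libraries of obese mice lay closer to each other than to WT. Pcna made up a larger part of the S sum in WT than in each library of obese mice. The balance without Pcna was not tested, so the difference cannot be read as one of the S list as a whole. Stromal cells did not share this pattern, at 0.649 (0.625 to 0.673), 0.822 (0.792 to 0.852), 0.669 (0.625 to 0.715) and 0.614 (0.581 to 0.649) in the same order of libraries. Within S, the summed UMIs of nucleotide supply genes had a db/db 16w ratio of 3.16 in Mono/MAC cells and those of origin and fork genes 1.68. The medians over members lay closer together, at 3.21 and 2.76, and the origin and fork sum includes Pcna.

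**Figure D4:**
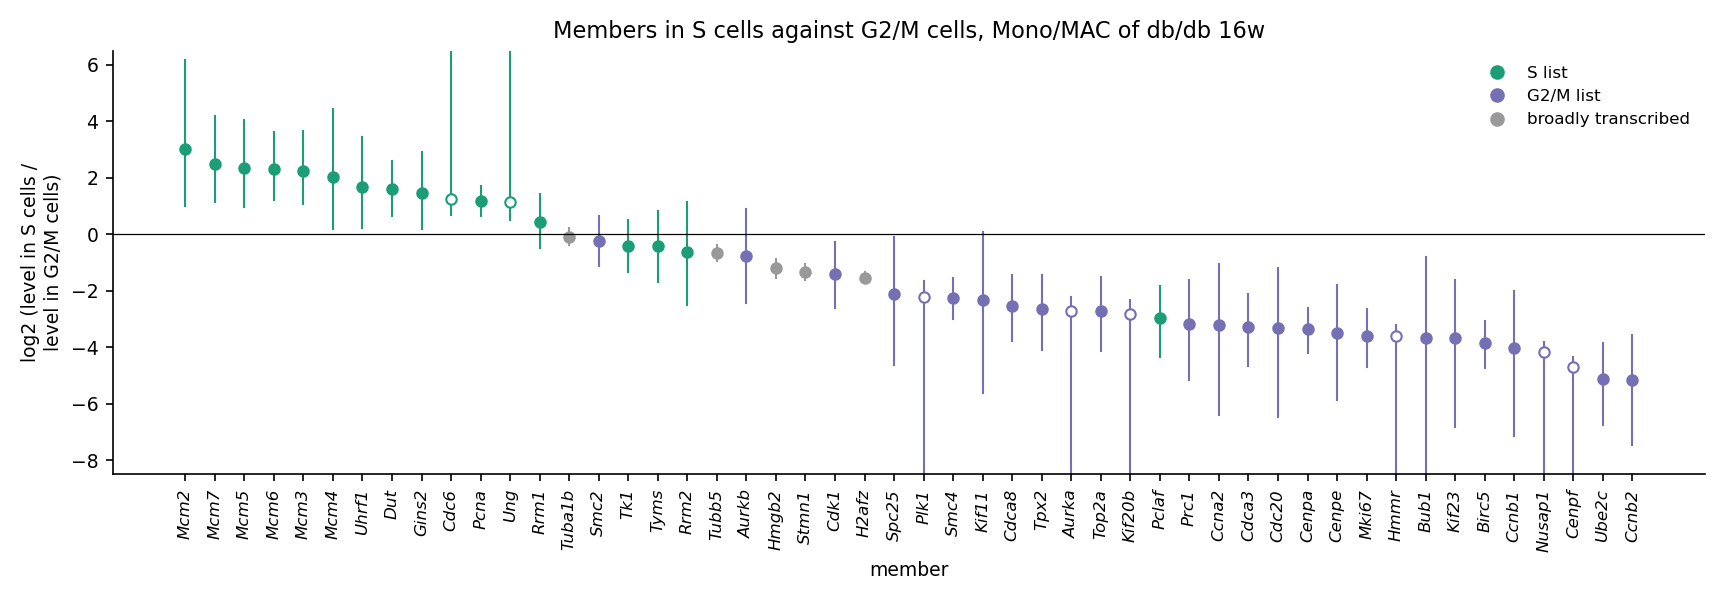
Log2 ratio of the level in S cells to that in G2/M cells (vertical axis) for each member (horizontal axis, by falling ratio) in db/db 16w Mono/MAC cells thinned to 3000 UMIs, with exact 95% intervals of counting error, some of which run past the edge. S members lie mostly above 0 and G2/M members below it, Pclaf lies among the G2/M members, and open circles mark members with 0 UMIs on a side, set to 3 UMIs.

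Stromal cells, the fibroblast and adipocyte precursor compartment, showed smaller differences than Mono/MAC cells in G2/M genes, and in S genes at 16 weeks and in HFD but not in db/db 8w. Their S list read 131 CPM in WT, 186 and 316 in the 8w and 16w libraries of db/db, and 212 in HFD, and their G2/M list 202, 226, 473 and 346 CPM. The log2 ratios for G2/M were 0.16 (0.11 to 0.21), 1.23 (1.16 to 1.30) and 0.78 (0.72 to 0.84), each below the Mono/MAC value of the same library with no overlap of intervals. For S they were 0.50 (0.45 to 0.56), 1.27 (1.19 to 1.36) and 0.70 (0.62 to 0.77), of which the first overlapped the Mono/MAC interval. Depth differed, with median UMIs of 6878, 2942.5, 2850 and 5152. With each cell thinned to 1000 UMIs the stromal ratios of db/db 16w fell to 0.55 for G2/M and 0.86 for S, and its G2/M level (232 CPM) lay below that of HFD (248 CPM, ratio 0.64). At 1000 UMIs per cell, 1.39%, 2.07%, 2.68% and 2.57% of stromal cells had at least 2 G2/M UMIs, and the intervals of the 3 libraries of obese mice overlapped each other. In db/db 8w 5 of the 50 members, all S genes, were at least 2-fold higher than in WT, near the 9.38% of all tested genes. Only 1 member was 2-fold lower, against 4.07%. In db/db 16w 33 were higher, against 14.4%, and none lower, against 18.4%. In HFD 15 were higher, against 15.5%, and none lower, against 8.88%. The db/db 16w to WT ratio was higher in Mono/MAC than in stromal cells for 46 of the 50 members, the others being Mcm5, Cdc6, Cenpa and Hmgb2. In db/db 8w it was for 38 members, 26 of 28 G2/M but 9 of 17 S genes, and in HFD for 43. The share of all genes with the higher ratio in Mono/MAC cells was not computed. Over all tested genes the median log2 ratio in Mono/MAC and in stromal cells was -0.14 and -0.09 in db/db 16w. It was -0.02 and 0.03 in db/db 8w, and 0.16 and 0.10 in HFD.

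Some members had opposite signs in the 2 lineages. Stromal Cenpf read 14.3 CPM in WT, 6.27 and 24.9 in the 8w and 16w libraries of db/db, and 19.4 in HFD. Its db/db 8w ratio was -1.19 (-1.44 to -0.94) in stromal cells and 1.84 in Mono/MAC cells. In WT, 87.1% of the stromal Cenpf UMIs of cells thinned to 3000 UMIs lay in 41 cells with G2/M transcripts. Cdc6 read 1.28, 1.94, 3.03 and 2.93 CPM in stromal cells, where its ratios were 0.60, 1.24 and 1.19. Mcm7 read 16.6, 14.8, 28.4 and 11.9 CPM, so that in HFD it lay below WT in stromal cells (-0.48) and above in Mono/MAC cells (1.29). The widest stromal ratios were those of Tk1 (3.26) and Birc5 (2.86) in db/db 16w, genes whose ratios were also wide in Mono/MAC cells.

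**Figure D5:**
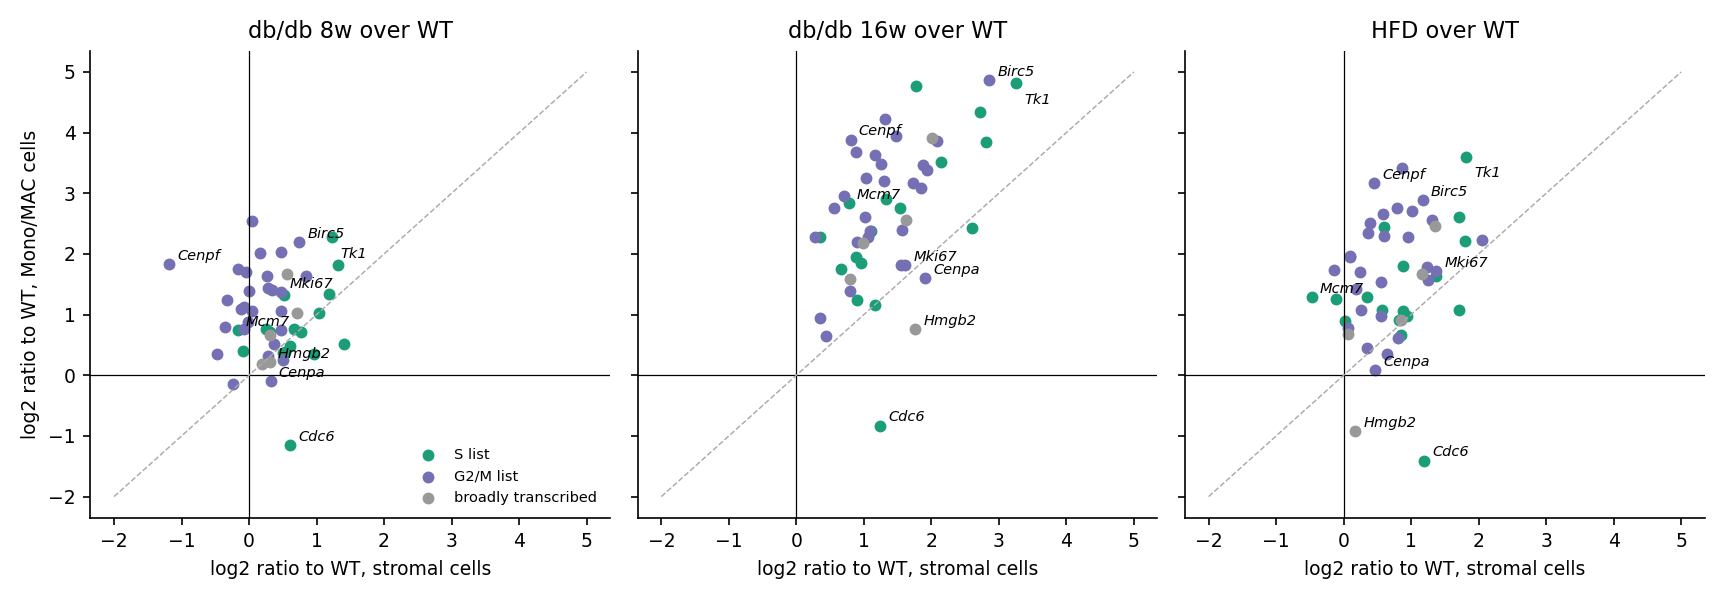
Log2 ratio to WT of each member in stromal cells (horizontal axis) and in Mono/MAC cells (vertical axis), in the 3 libraries of obese mice. Each point is a member, the dashed line marks equal ratios, and in db/db 16w 46 of 50 members have the higher ratio in Mono/MAC cells. The share of all genes with the higher ratio there was not computed.

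Endothelial cells could be compared only between db/db 16w and HFD, and there HFD was higher. The G2/M list read 130 CPM (113 to 148) in db/db 16w and 745 CPM (720 to 771) in HFD, 5.74-fold, and the S list 203 and 361 CPM. Several G2/M genes had almost no UMIs in db/db 16w and passed the limit of 30 UMIs only through HFD, so members past 2-fold are not counted here. Mki67 read 7.89 and 82.6 CPM (3.39), Top2a 4.86 and 66.0 CPM (3.76), and Cenpf 1.21 CPM (2 UMIs) and 62.6 CPM (5.69, 3.82 to 8.74). Prc1, Kif23, Hmmr and Cdca3 had no UMI in db/db 16w. With the floor of 3 UMIs in that library, the log2 ratio of Prc1, a spindle midzone protein, was at least 4.31. The log2 ratios of the 6 Mcm genes ran from -0.58 for Mcm4 (-1.25 to 0.12), at 18.2 and 12.2 CPM, to 1.46 for Mcm5 (-0.05 to 3.43), at 2.43 and 6.67 CPM. Of these 6, 4 lay above 0 and each had an interval that spanned 0, while Pcna read 65.6 and 170 CPM (1.37).

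Depth went along with this difference, since the median was 1024 UMIs in db/db 16w and 4543 in HFD endothelial cells. Thinned to 1000 UMIs, which left out 607 of the 1269 db/db 16w cells and 3 of the HFD cells, 0.604% and 5.61% of cells had at least 2 G2/M UMIs (4 of 662 and 48 of 856). S UMIs were found at that limit in 2.87% and 5.61%. The UMI ratio of S to G2/M was 1.57 in db/db 16w against 0.485 in HFD. The HFD library also held 1001 mixed cells, and db/db 16w was the library with the Xist RNA, and their part in the result was not tested.

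Other genes of the cell cycle, 97 that are not members, followed the members where they serve replication or mitosis. In Mono/MAC cells of db/db 16w, 24 of 29 other replication genes and 31 of 36 other mitosis genes were at least 2-fold higher than in WT, against 20.1% of all tested genes. Of 9 G1 cyclins and kinases 4 were, as were 5 of 11 transcription factors and 3 of 12 inhibitors, while 4 inhibitors were 2-fold lower, against 25.5%, so the inhibitors were near the background in both directions. Over all 97 genes, 33 of 93 tested were higher in db/db 8w, 67 of 97 in db/db 16w and 56 of 95 in HFD, against 7.2%, 20.1% and 17% of all tested genes. Lower were 2, 7 and 4, against 8.12%, 25.5% and 11.6%.

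Ccnd1 (cyclin D1), which couples growth signals to the cycle, read 10.4, 43.5, 147 and 94.6 CPM, log2 ratios of 2.06, 3.82 and 3.19. Foxm1, the activator of mitotic genes, read 1.67, 3.91, 15.5 and 5.46 CPM. E2f1 read 13.8, 13.7, 25.3 and 16.3 CPM, log2 ratios of -0.02, 0.87 and 0.23. Cdkn1a (p21), an inhibitor of cyclin-dependent kinases, read 507, 570, 217 and 365 CPM, log2 ratios of 0.17, -1.22 and -0.47. Cdkn2a, which encodes the inhibitor p16 and the protein Arf, had 1 UMI in WT and read 3.46, 8.41 and 4.30 CPM in the other libraries. The ratios to that 1 UMI were 4.75, 6.04 and 5.07. The mitosis gene Sgo1, which protects cohesion at centromeres, read 0.641, 3.29, 19.2 and 5.91 CPM. Cdkn3, a phosphatase of Cdk2, read 1.41, 6.12, 39.0 and 7.52 CPM, and Aspm, a spindle pole protein, read 1.67, 6.29, 12 and 18 CPM. Ncapg, Kif20a and Pbk, likewise of mitosis, and Clspn, of the replication checkpoint, had ratios of 1.67 to 2.25 and 3.06 to 4.24 for the 8w and 16w libraries of db/db and 2.84 to 3.11 for HFD.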

How the data were processed

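For each library the authors deposited raw UMI counts of genes by barcodes, made with 10x Genomics chemistry and Cell Ranger on mouse mm10, before quality filtering. The submitters' processing notes give Cell Ranger 7.1.0, and the file headers 6.0.0. The members, lists, gates and tests were chosen with earlier results of these data known. A kept barcode had more than 250 but fewer than 6000 genes, more than 500 but fewer than 30000 UMIs and a mitochondrial share below 15%, the limits of the study. A lineage needed at least 3 UMIs of at least 2 of its markers and 75% of all lineage marker UMIs. Doublets were not called, and mixed cells were kept apart from the lineages. Levels are summed UMIs in CPM, that is per 1000000 UMIs of the class, with exact Poisson intervals. Ratios have exact conditional binomial intervals, and shares have Clopper-Pearson intervals. A gene was counted against the 2-fold limit with at least 30 UMIs over both libraries, a count of 0 being set to 3 UMIs. Cells were thinned at random to 1000 UMIs, which left out 9 to 2181 per library. As UMIs came from transcript 3′ ends, levels were compared between libraries, not between genes. Values in every library were given for the Mcm genes, Pcna, Tyms, Rrm1, Rrm2, Mki67, Top2a and the members with the most and fewest Mono/MAC UMIs of each role, and for up to 10 other cell cycle genes with the largest smallest ratio to WT, plus Cdkn1a, Ccnd1, E2f1 and Foxm1. A gene that this rule named is not reported here. Uhrf1, Pclaf, Tk1, Birc5, Cenpf and Stmn1 and genes of macrophage subsets were added after their values were seen. Code ran in Python 3.11.15 with numpy 2.4.6, scipy 1.17.1 and pandas 2.3.3 and was tested on simulated counts.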

Additional observations from a re-analysis of the deposited data

Results flagged for a closer look

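Cdc6, Cenpf, Mcm7 and Hmgb2 had ratios to WT of opposite sign in Mono/MAC and stromal cells, each with an interval of counting error on its own side of 0, and none of these differences was tested. Cdc6 had log2 ratios of -1.15 in Mono/MAC and 0.60 in stromal cells of db/db 8w, -0.83 and 1.24 in db/db 16w, and -1.41 and 1.19 in HFD. Cenpf had 1.84 and -1.19 in db/db 8w. Mcm7 had 1.29 and -0.48 in HFD. Hmgb2 had -0.92 and 0.17 in HFD.

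Barcodes outside the quality limits, which entered no comparison, also held transcripts of both lists. The S list read 104 CPM in 2374 such barcodes of WT, 310 in 6658 of db/db 8w, 719 in 684 of db/db 16w and 274 in 11978 of HFD. The G2/M list read 217, 564, 1831 and 372 CPM in that order. The 3 libraries of obese mice were above WT here too.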

How the results depend on the processing

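The 40 results were recomputed under alternatives that gave 197 values, of which 140 stayed within the counting interval of the value reported or within 1.5 times a count, 57 moved and 0 changed direction. No paired analysis was possible because each group is 1 library. With each cell thinned to 1000 UMIs, so that deep cells weighed no more than others, the log2 ratios over all cells were 0.62, 1.82 and 1.18 for S and 0.68, 2.09 and 1.49 for G2/M (db/db 8w, then db/db 16w, then HFD), and in Mono/MAC cells those that moved were 1.83 (S, db/db 16w), 0.97 (S, HFD), 0.88 (G2/M, db/db 8w) and 2.37 (G2/M, db/db 16w). Without the mitochondrial limit the HFD ratios were 1.12 for S and 1.27 for G2/M over all cells and 1.04 and 1.43 in Mono/MAC cells, the Mono/MAC G2/M ratio of db/db 16w was 2.54, and 29.0% of HFD cells with G2/M UMIs were Mono/MAC. With mixed cells left out, the G2/M ratios over all cells were 0.75 in db/db 8w and 2.56 in db/db 16w. With the broadly transcribed genes added to the G2/M list (33 genes) they were 2.42 in db/db 16w and 1.32 in HFD over all cells, and 0.77, 2.18 and 1.15 in Mono/MAC cells. A gate purity of 90% gave 0.79 and 1.35 for G2/M in db/db 8w and HFD. The median over members in place of the sum gave 0.72, 2.43 and 1.26 for S and 1.18, 3.02 and 1.86 for G2/M in Mono/MAC cells. Log2 ratios of the Mono/MAC share of cells with S UMIs, 3.06 in db/db 16w as reported, were 1.92 when thinned to 2000 UMIs, 3.88 with at least 3 UMIs of the list and 2.40 without barcodes found in 2 or more libraries (chosen after seeing the data), and 1.03 in HFD at 2000 UMIs. Those for G2/M UMIs, 3.05 as reported, were 2.22 at 2000 UMIs and 3.74 with at least 3 UMIs, and 1.25 in HFD at 2000 UMIs. Leaving out barcodes found in 2 or more libraries removed at most 98 of WT and 88 of db/db 16w and redrew the thinning. The part of each in the move to 2.40 was not tested. A second draw alone gave 3.13 for S and 3.38 for G2/M in db/db 16w. At 2000 UMIs the Mono/MAC part of cells with G2/M UMIs was 38.0% in WT and 50.1% in db/db 8w. The WT shares rest on 24 and 29 cells, which limits every ratio of shares.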
